A study of Homo sapiens with 18 samples.

Results

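The immediate-early genes and the subunits of the transcription factor AP-1 were followed in MDA-MB-231 cells after knockdown of fibrillarin. Their 10 members are FOS, FOSB, FOSL2, JUN, JUNB, JUND, EGR1, IER2, IER3 and KLF6. They were chosen by gene symbol, with earlier results of these data known, and 10 of 10 were found among the 17017 genes of the deposited table. In cytoplasmic RNA, FOS, JUNB and IER2 rose with both hairpins, by 1.48-fold to 2.42-fold with SH2 and by 1.49-fold to 1.72-fold with SH3. With SH3 these 3 of 10 were the only members called higher in RNA (27.8% of all genes were). The share of all genes called in the same direction by both hairpins was not computed, in RNA or in footprints. Both hairpins were set against the same SC libraries, so the single shares do not give it. JUND was the 1 member called lower. Its RNA fell with SH2 (30.4% of all genes were called lower). Its ribosome footprints fell with SH2 and SH3 (23.2% and 19% of all genes were called lower). With SH2 7 of 10 members were called higher in RNA (31.1% of all genes were), or 5 by DESeq2, which left out JUN and EGR1. In footprints IER2 and IER3 were called higher with SH2, 2 of 9 tested (21% of all genes were), and single leave-outs lost each call. JUNB footprints were called higher with SH3, 1 of 9 (16.9% of all genes were), in every alternative run. FOS footprints did not pass the test with either hairpin.

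Immediate-early genes are transcribed within minutes of a signal, such as serum, a growth factor or stress, from factors that are already present in the cell. AP-1 is a dimer: FOS proteins (FOS, FOSB, FOSL1, FOSL2) pair with JUN proteins (JUN, JUNB, JUND), and JUN proteins also pair with one another. MAP kinase signalling acts both on transcription of the genes and on the finished proteins. Many of these mRNAs and proteins are short-lived. Inhibitors of translation are known to raise several of these mRNAs, because their transcripts are then broken down more slowly and their shut-off needs newly made protein. In breast carcinoma cells AP-1 is known for driving genes of invasion, growth factor ligands and cytokines.

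MDA-MB-231 is an established human line of triple-negative breast carcinoma. The cells received, by lentivirus from a pLKO.1 vector, either a scramble control (read here as the label SC) or 1 of the hairpins labelled SH2 and SH3, which are directed against fibrillarin (FBL), a nucleolar enzyme that places methyl groups on ribose in ribosomal RNA. Per the labels' protocols, which name the hairpins knockdown 1 and 2 without saying which label is which, the cells spent 96 h in puromycin at 1 µg/ml, were given fresh medium, and on the next day received cycloheximide at 100 µg/ml for 5 min before lysis. Each of the 3 treatments has 3 libraries of input cytoplasmic RNA (IN) and 3 of ribosome-protected footprints (RPF). Controls and knockdowns thus share the virus, the puromycin, the medium change and the cycloheximide, an inhibitor of translation. No group without cycloheximide is among the samples, so its part in the level of these mRNAs cannot be told apart from the rest. The labels do not say that the replicates are separate cultures, so p-values measure only the spread between these samples.

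The promoters of the members share short elements known from immediate-early genes. RefSeq's promoter table (GRCh38.p14) matched 9 of the 10 members; IER3 was not matched. In the 250 bases before the annotated start, searched on both strands, TGACG (the core of the cAMP response element) stood in 8 of 9 promoters, against 21.2% of all 35116 promoters of the same length. These 30-base stretches are shown because a copy of the element lies at a similar distance from the start in FOS, FOSB, FOSL2 and EGR1. Here capitals mark TGACG, which reads CGTCA where it lies on the other strand, and in JUN, JUND and KLF6 a longer element named below. Each is written 5' to 3' along the gene.
FOS, chr14:75278751-75278780, plus strand: gtggttgagcccgTGACGtttacactcatt
FOSB, chr19:45467923-45467952, plus strand: agcaaggggcgggTGACGtaagcagggggg
FOSL2, chr2:28392779-28392808, plus strand: tggagtctggggtTGACGtgagtgaatcca
JUN, chr1:58784096-58784125, minus strand: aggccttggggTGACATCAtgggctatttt
JUNB, chr19:12791336-12791365, plus strand: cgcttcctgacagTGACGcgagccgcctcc
JUND, chr19:18281804-18281833, minus strand: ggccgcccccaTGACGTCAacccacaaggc
EGR1, chr5:138465400-138465429, plus strand: atatggccatgtaCGTCAcgacggaggcgg
IER2, chr19:13150258-13150287, plus strand: ccacccccgccccCGTCAcgccaccatcga
KLF6, chr10:3785363-3785392, minus strand: ttggccggagcTGACATCAtcggcgcgcag

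The TGACG of FOS ended 60 bases before the start, that of FOSB 56 bases, and the copies shown of FOSL2 and EGR1 62 bases. FOSL2 and EGR1 each held a further copy, ending 197 and 131 bases before the start, and the copy nearest the start was shown. In JUNB, JUN and IER2 it ended 133, 119 and 136 bases before the start, and in JUND copies ended at 196, 193 and 82 bases. The palindrome TGACGTCA, which contains TGACG on each strand, was found in JUND alone (1.65% of all promoters). TGACATCA, a variant bound by JUN with ATF2, stood in JUN and KLF6 (2.37% of all). Within the 250 bases, the CArG box (the site of serum response factor, searched by its consensus) occurred in EGR1 alone, in 2 copies, against 1.16% of all promoters. Bases further from the start were not searched, so a box there would be missed. Its stretch at chr5:138465369-138465410 reads, with both boxes in capitals:
EGR1 CArG: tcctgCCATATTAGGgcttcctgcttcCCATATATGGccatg
TATAAA was found in FOS, FOSB and JUNB (10.7% of all). The AP-1 site TGACTCA was found in 0 of 9 (4.2% of all), and the EGR1 site GCGTGGGCG in 0 of 9 (0.72%). CCGGAA, the core of ETS sites, stood in FOSB and IER2 (14.5%), GGGCGG in 7 of 9 (42.6%) and CCAAT in 4 of 9 (32%). A match is a description of the letters and says nothing about binding in these cells.

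IN libraries held 23469830 to 27629488 counts and RPF libraries 1662705 to 6098648, so footprint values rest on fewer counts. FBL, the targeted gene, fell to 1.46% of its SC RNA with SH2 and to 0.898% with SH3, and SH2 replicate 3 kept the most (11.2 against an SC mean of 388 CPM). CPM values are the usual depth-scaled counts, with library sizes scaled by TMM within IN or RPF; they do not correct for gene length. VIM, CD44, CAV1, AXL and KRT18, known to be high in this line, stood at 163 to 5579 CPM in SC, and CDH1, ESR1 and PGR, listed as low, were at 0.0273 to 0.337 CPM. EPCAM and ERBB3 of that list stood at 5.66 and 14.2 CPM, and KRT19 reached 495 CPM in SC RNA and so went against it. SC RNA replicate 1 had the highest of the 3 SC values for 8 of 10 members, and SH2 RNA replicate 2 the lowest SH2 value for 8 of 10. Without SC replicate 1, 9 members passed the test with SH2 and 5 with SH3.

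A gene is called here where edgeR's quasi-likelihood test, adjusted by Benjamini-Hochberg over all genes tested, gave a p under 0.05. With SH2, 8 of 10 members were called in RNA, 7 higher and 1 lower. Of all 12710 genes tested, 61.4% were called, 31.1% higher and 30.4% lower. The members' median log2 fold change was 0.42, against 0.012 for all genes. With SH3, 3 of 10 were called, all 3 higher, against 53% of all genes (27.8% higher, 25.2% lower), and the members' median was 0.32 against 0.034. In RNA the libraries of SH2 and SC did not overlap for 5 members, 4 above and 1 below, as for 64.3% of all genes (32.5% above, 31.9% below). For SH3 they did not overlap for 3 members, all above, as for 62.9% of all genes (33.3% above, 29.6% below). SH2 and SH3 were set against 1 set of SC libraries, and their changes share the chance values of that set. In bulk RNA, a change in the number of expressing cells and a change in RNA per cell cannot be told apart.

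**Figure D1:**
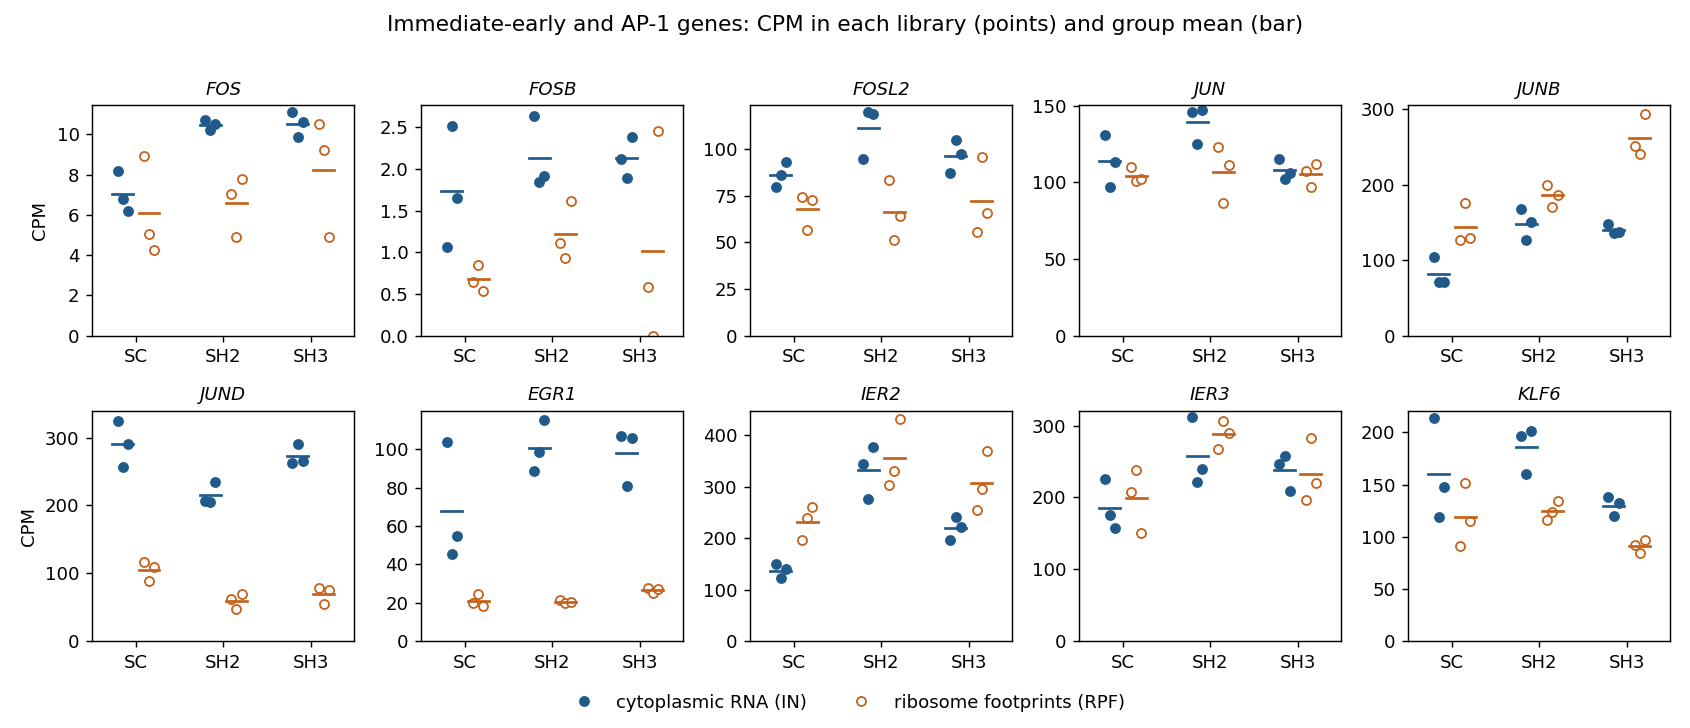
CPM of each member (one panel each, linear axis from 0) in the 3 libraries of SC, SH2 and SH3; filled points are cytoplasmic RNA, open points footprints, and bars group means. In FOS, JUNB and IER2 the RNA points of both hairpins lie above all SC points; in JUND the footprint points of both hairpins lie below all SC points.

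FOS is the founding FOS subunit and cannot form a dimer with itself. Its RNA stood at 8.20, 6.80 and 6.18 CPM in SC replicates 1 to 3, at 10.7, 10.2 and 10.5 in SH2, and at 11.1, 9.86 and 10.6 in SH3. All 6 knockdown libraries lay above all 3 SC libraries. The log2 fold change was 0.57 (SE 0.14, edgeR adjusted p = 0.00276) with SH2 and 0.58 (SE 0.14, edgeR adjusted p = 0.00315) with SH3. FOS footprints were few, 12 to 55 counts per library, and gave 8.93, 5.06 and 4.26 CPM in SC, 7.04, 4.90 and 7.77 in SH2, and 10.5, 9.24 and 4.91 in SH3. The 3 groups overlapped. The footprint change was 0.042 (SE 0.36) with SH2 and 0.35 (SE 0.36) with SH3 (edgeR adjusted p = 0.937 and 0.474), an error wide enough that a change of the RNA's size was not detectable at this depth.

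FOSB, a FOS subunit known for its long-lived splice form in neurons, held only 26 to 67 counts in each RNA library. RNA levels were 1.06, 2.51 and 1.65 CPM with SC, 2.63, 1.84 and 1.92 with SH2 and 2.12, 1.89 and 2.38 with SH3. The groups overlapped, and neither change of 0.29 (SE 0.29) was called (edgeR adjusted p = 0.397 with SH2 and 0.417 with SH3). FOSB footprints numbered 0 to 7 per library and were not tested.

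FOSL2 encodes FRA-2, a FOS subunit that lacks a strong activation domain. In RNA it measured 79.8, 86.1 and 92.9 CPM with SC, 94.9, 120 and 119 with SH2 and 87.0, 105 and 97.6 with SH3. SH2 lay above SC without overlap, while SH3 overlapped both. FOSL2 RNA rose by 0.37 (SE 0.11, edgeR adjusted p = 0.0109) with SH2. That call was lost without SH2 replicate 3 (0.30, edgeR adjusted p = 0.0539). With SH3 the difference was 0.16 (SE 0.11, edgeR adjusted p = 0.247). Footprints overlapped in all groups, at 56.5 to 74.4 CPM (SC), 51.3 to 83.3 (SH2) and 55.6 to 95.9 (SH3), with changes of -0.055 (SE 0.21) and 0.098 (SE 0.21) that were not called.

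JUN is the classical JUN subunit, activated by phosphorylation by the JNK kinases. Its RNA stood at 131, 97 and 113 CPM with SC, at 146, 125 and 147 with SH2 and at 115, 102 and 106 with SH3. SC replicate 1 lay inside the SH2 range. JUN RNA was called higher with SH2, by 0.29 (SE 0.11, edgeR adjusted p = 0.0392), and this call was among the least stable. It was lost by DESeq2 (0.27, adjusted p = 0.0509), with DESeq2's size factors in edgeR (adjusted p = 0.0516) and with only SH2 and SC in the edgeR fit (adjusted p = 0.0816). It was also lost without SC replicate 2, SC replicate 3, SH2 replicate 1 or SH2 replicate 3 (edgeR adjusted p 0.093 to 0.179). The authors' deposited table gave it an adjusted p of 0.052. With SH3 the difference was -0.077 (SE 0.11), and it turned to 0.016 when library totals replaced TMM. JUN footprints lay at 101 to 110 CPM (SC), 86.2 to 123 (SH2) and 96.9 to 112 (SH3), with changes of 0.033 (SE 0.15) and 0.013 (SE 0.15) that were not called.

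JUNB, a JUN subunit that can hold back JUN at some targets and is a strong immediate-early gene, showed the clearest gain of the AP-1 subunits. RNA values were 104, 71.0 and 70.7 CPM with SC, 168, 127 and 150 with SH2 and 148, 136 and 138 with SH3. The lowest knockdown library exceeded the highest SC library. JUNB RNA rose by 0.86 (SE 0.14, edgeR adjusted p = 0.000153) with SH2 and by 0.78 (SE 0.14, edgeR adjusted p = 0.000463) with SH3. Footprints stood at 127, 176 and 129 CPM with SC, at 200, 171 and 187 with SH2 and at 251, 241 and 294 with SH3. Here SH3 stood above both other groups, and SH2 overlapped SC. JUNB footprints rose by 0.87 (SE 0.15, edgeR adjusted p = 0.000423) with SH3. With SH2 they differed by 0.37 (SE 0.15, edgeR adjusted p = 0.0553). This value, near the threshold, was called with the replicate number as a block (0.38, edgeR adjusted p = 0.0463), with DESeq2's size factors or library totals in edgeR (adjusted p = 0.0495 and 0.0463), and without SC replicate 2 (0.54, edgeR adjusted p = 0.00657).

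JUND is the JUN subunit that many cells make steadily rather than on induction. Cytoplasmic RNA stood at 325, 257 and 290 CPM with SC, at 206, 205 and 235 with SH2 and at 263, 291 and 265 with SH3. SH2 lay below all SC libraries, and SH3 within their range. JUND RNA fell by 0.43 (SE 0.10, edgeR adjusted p = 0.0025) on the log2 scale with SH2. With SH3 the difference was -0.09 (SE 0.10, edgeR adjusted p = 0.486), or 0.0014 with plain library totals. Footprints stood at 117, 88.0 and 109 CPM with SC, at 62.2, 47.6 and 69.3 with SH2 and at 78.4, 55.1 and 75.7 with SH3. All 6 knockdown libraries lay below all 3 SC libraries. JUND footprints fell by 0.83 (SE 0.18, edgeR adjusted p = 0.00147) with SH2 and by 0.60 (SE 0.18, edgeR adjusted p = 0.0156) with SH3. The SH3 call was lost without SC replicate 3 (-0.56, edgeR adjusted p = 0.058) and without SH3 replicate 2 (-0.44, edgeR adjusted p = 0.111).

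EGR1 is a zinc finger factor and a serum response factor target, whose promoter carries the 2 CArG boxes shown above. Its RNA stood at 104, 45.4 and 54.7 CPM with SC, at 88.5, 98.7 and 115 with SH2 and at 107, 80.8 and 106 with SH3. The SC group was split: replicate 1 was at the level of the knockdown libraries, and the other two SC libraries lay below all 6 of them. EGR1 RNA was called higher with SH2, by 0.57 (SE 0.23, edgeR adjusted p = 0.0456), and missed the threshold with SH3, at 0.52 (SE 0.23, edgeR adjusted p = 0.0706). Without SC replicate 1 the changes were 0.99 (edgeR adjusted p = 5.14e-05) with SH2 and 0.95 (edgeR adjusted p = 0.000115) with SH3. With the replicate number as a block, the SH3 value was called (0.57, edgeR adjusted p = 0.0148). The SH2 call was lost without SC replicate 2 (0.35), SC replicate 3 (0.43), SH2 replicate 2 (0.58) or SH2 replicate 3 (0.44), with edgeR adjusted p of 0.0943 to 0.192. It was also lost with DESeq2's size factors in edgeR (adjusted p = 0.0522) and with only SH2 and SC in the edgeR fit (adjusted p = 0.0659). DESeq2 did not call it either (adjusted p = 0.132), nor did the authors' deposited table (adjusted p = 0.135). EGR1 footprints stood at 20.1, 24.4 and 18.3 CPM with SC, at 21.5, 19.8 and 20.7 with SH2 and at 27.5, 25.3 and 27.3 with SH3. SH3 lay above SC without overlap, by 0.37 (SE 0.18, edgeR adjusted p = 0.119), and SH2 footprints differed from SC by 0.00069 (SE 0.17).

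KLF6, a Krüppel-like zinc finger factor of the immediate-early class, was not called in RNA or footprints with either hairpin. In RNA the values were 214, 119 and 148 CPM with SC, 197, 160 and 201 with SH2 and 138, 120 and 132 with SH3. The SC libraries spanned the whole range of both knockdowns. The differences were 0.22 (SE 0.17, edgeR adjusted p = 0.276) with SH2 and -0.30 (SE 0.17, edgeR adjusted p = 0.147) with SH3. Both depended on single SC libraries: without replicate 1 the SH2 value was 0.46 (edgeR adjusted p = 0.00644), and without replicate 2 the SH3 value was -0.47 (edgeR adjusted p = 0.0164). KLF6 footprints lay at 90.8 to 152 CPM (SC), 116 to 134 (SH2) and 84.6 to 97.1 (SH3). The footprint differences were 0.079 (SE 0.17) with SH2 and -0.37 (SE 0.17) with SH3, and the latter was called without SC replicate 1 (-0.53, edgeR adjusted p = 0.0144).

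IER2, a small immediate-early protein found in nucleus and cytoplasm, changed most of the 10 members in RNA with SH2. Its RNA stood at 149, 122 and 140 CPM with SC, at 343, 276 and 377 with SH2 and at 197, 242 and 221 with SH3. The 3 groups did not overlap, in the order SC, SH3, SH2. IER2 RNA rose by 1.27 (SE 0.13, edgeR adjusted p = 1.46e-06) with SH2, larger than 89% of genes in absolute size. With SH3 it rose by 0.68 (SE 0.12, edgeR adjusted p = 0.000435), larger than 73.6% of genes. Other called RNA changes ranked lower: FOS at 58.1% (SH2) and 66.8% (SH3), and JUND at 46.5% (SH2). JUNB ranked at 75.8% (SH2) and 78.9% (SH3). IER2 footprints stood at 196, 239 and 260 CPM with SC, at 303, 331 and 431 with SH2 and at 255, 295 and 370 with SH3. SH2 lay above SC, and SH3 overlapped both. IER2 footprints rose by 0.61 (SE 0.17, edgeR adjusted p = 0.00822) with SH2, which was lost without SH2 replicate 3 (0.46, edgeR adjusted p = 0.0548). With SH3 they differed by 0.41 (SE 0.17, edgeR adjusted p = 0.0733), which was called without SH3 replicate 1 (0.54, edgeR adjusted p = 0.0376). It was also called with the replicate block (0.40, edgeR adjusted p = 0.0126), with library totals (0.48) and with no filter (0.41).

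IER3, known as IEX-1, is a stress-inducible protein that acts on cell survival and ERK signalling. RNA levels were 225, 176 and 157 CPM with SC, 312, 222 and 239 with SH2 and 247, 258 and 209 with SH3. SC replicate 1 overlapped both knockdown groups. IER3 RNA was called higher with SH2, by 0.47 (SE 0.15, edgeR adjusted p = 0.0133). This call was lost without SC replicate 3 (0.36, edgeR adjusted p = 0.0702) or SH2 replicate 1 (0.31, edgeR adjusted p = 0.0772). With SH3 the difference was 0.36 (SE 0.15, edgeR adjusted p = 0.0563), called without SC replicate 1 (0.50, edgeR adjusted p = 0.00908), with the replicate block (0.37, edgeR adjusted p = 0.00626), with library totals (0.45) and with no filter (0.36). Footprints stood at 208, 238 and 150 CPM with SC, at 267, 307 and 289 with SH2 and at 196, 282 and 220 with SH3, with SH2 above SC and SH3 overlapping it. IER3 footprints rose by 0.54 (SE 0.17, edgeR adjusted p = 0.0192) with SH2, which was lost without SC replicate 3 (0.38, edgeR adjusted p = 0.102) and without SH2 replicate 2 (0.50, edgeR adjusted p = 0.0615). With SH3 the footprint difference was 0.23 (SE 0.17, edgeR adjusted p = 0.316).

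**Figure D2:**
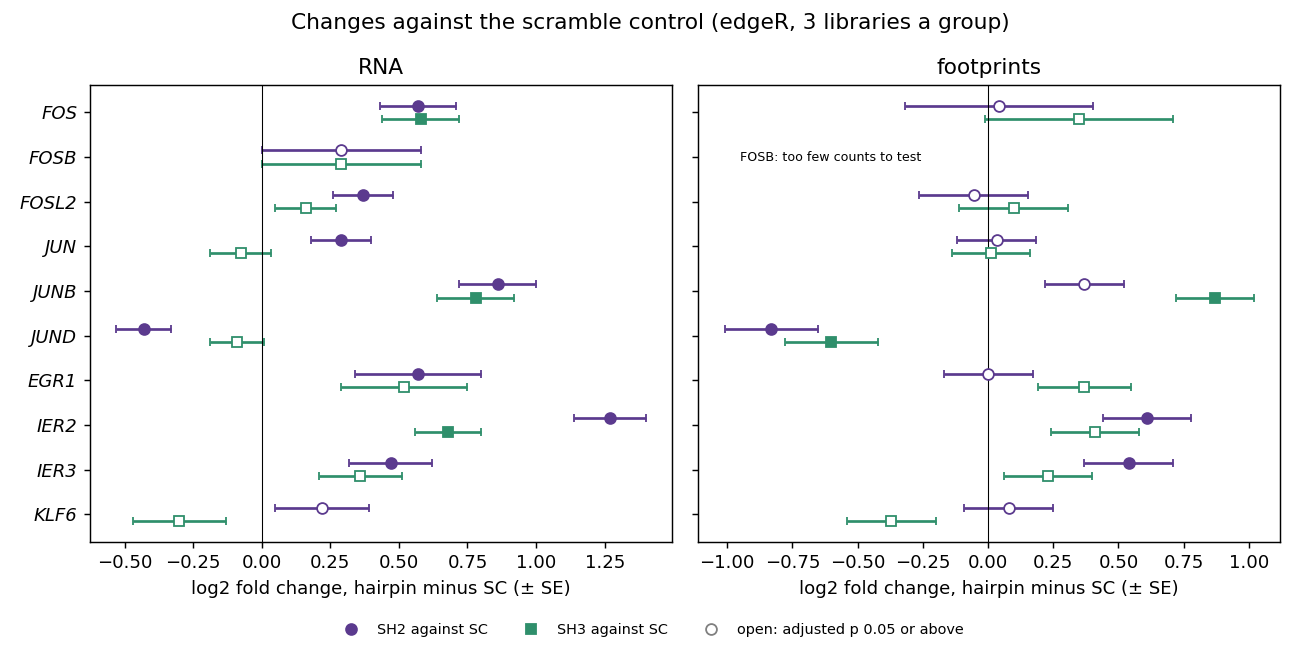
Log2 fold change against SC (points, bars ± SE, edgeR) of each member in RNA (left) and footprints (right), with SH2 as circles and SH3 as squares; filled symbols passed the threshold. RNA of 7 members is filled to the right with SH2, and JUND alone lies filled to the left, in RNA with SH2 and in footprints with both; the open SH3 values of JUN and JUND RNA turn to 0.016 and 0.0014 with plain library totals.

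In footprints 9 members were tested. With SH2, 3 of 9 were called (IER2 and IER3 higher, JUND lower), against 44.2% of all 10345 genes (21% higher, 23.2% lower). With SH3, 2 of 9 were called (JUNB higher, JUND lower), against 35.9% of all genes (16.9% higher, 19% lower). The members' median change was 0.042 with SH2 and 0.23 with SH3, against -0.0042 and -0.014 for all genes. The libraries did not overlap for 3 of 9 with SH2 (2 above, 1 below), as for 51.3% of all genes (25% above, 26.3% below). With SH3 they did not overlap for 3 of 9 (2 above, 1 below), as for 46.5% of all genes (22.5% above, 23.9% below).

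Translational efficiency, the change in footprints less the change in RNA, was tested in 1 model over all 18 libraries. With each hairpin 0 of 10 members were called by edgeR, against 3.9% of 12531 genes with SH2 (1.44% higher, 2.46% lower) and 0.686% with SH3 (0.375% higher, 0.311% lower). DESeq2 likewise called 0 members, and 930 and 383 genes. With treatment and replicate number as a replicate block, 0 members and 191 and 23 genes were called. This block treats IN and RPF libraries of 1 number as a pair, which the labels do not state. In replicates 1 and 2 of SC and SH2 such libraries deviated in opposite directions, so the blocked counts are no check on the main fit. FOSB entered this fit through its RNA counts alone, since its footprints failed the filter, and its values have an SE of 0.82 and 0.89. At an unadjusted p under 0.05 there were 2 members with SH2 (IER2 and JUNB) and 1 with SH3 (JUND), named here after their values were seen. Of the 10 values with SH2, 8 were below 0, with a median of -0.43 against -0.019 for all genes. With SH3, 7 were below 0, with a median of -0.081 against -0.044. Without FOSB, 8 of 9 and 7 of 9 were below 0, with medians of -0.45 and -0.10.

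IER2 had the largest value, -0.67 (SE 0.22, edgeR adjusted p = 0.0937) with SH2, where its RNA gain exceeded its footprint gain. It was -0.26 (SE 0.22) with SH3. Where low-count genes were kept, the SH2 value was called (-0.68, edgeR adjusted p = 0.0473). JUNB stood at -0.49 (SE 0.21, edgeR adjusted p = 0.223) with SH2, which was called without SC replicate 1 (-0.76, edgeR adjusted p = 0.0362), and at 0.11 (SE 0.21) with SH3, which turned to -0.17 without that replicate. JUND was negative with both, -0.41 (SE 0.21) and -0.51 (SE 0.21), with edgeR adjusted p of 0.301 and 0.294. FOSL2 stood at -0.45 (SE 0.25) with SH2 and -0.051 (SE 0.25) with SH3, and the latter was above 0 in 3 of the settings tried. EGR1 was not called with SH2 (-0.57), except where SC replicate 1 was left out (-1.01, edgeR adjusted p = 0.0279). Leaving out SC replicate 1 removes its IN and RPF library together, and these deviated in opposite directions (correlation -0.49). This limits the EGR1 and JUNB calls made without it.

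The ratio of footprint CPM to RNA CPM describes how heavily a gene's mRNA is occupied relative to others in the same cells. It was computed as a group's mean log2 footprint CPM less its mean log2 RNA CPM. Whether footprints and RNA were counted over the same stretch of a gene is not given in the sources used here. Over 10319 genes the median log2 ratio in SC was -0.19, with quartiles at -0.92 and 0.40. JUNB stood at 0.83 ± 0.41 (SD, n = 3 per library kind) and IER2 at 0.75 ± 0.26, above 89.2% and 87.2% of genes. EGR1 stood at -1.61 ± 0.66 and JUND at -1.48 ± 0.27, above only 10.7% and 12.5% of genes. Between these lay IER3 (0.09), JUN (-0.12), FOS (-0.28), FOSL2 (-0.36) and KLF6 (-0.42), whose SDs of 0.23 to 0.60 overlap. FOSB, at -1.31 ± 0.71, rests on 2 to 4 footprint counts a library. The members thus did not share a level of occupancy: JUNB and JUND, of 1 family, differed by more than their SDs in SC, and did so again in SH2 (0.33 ± 0.23 against -1.87 ± 0.30) and SH3 (0.89 ± 0.16 against -1.98 ± 0.29).

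**Figure D3:**
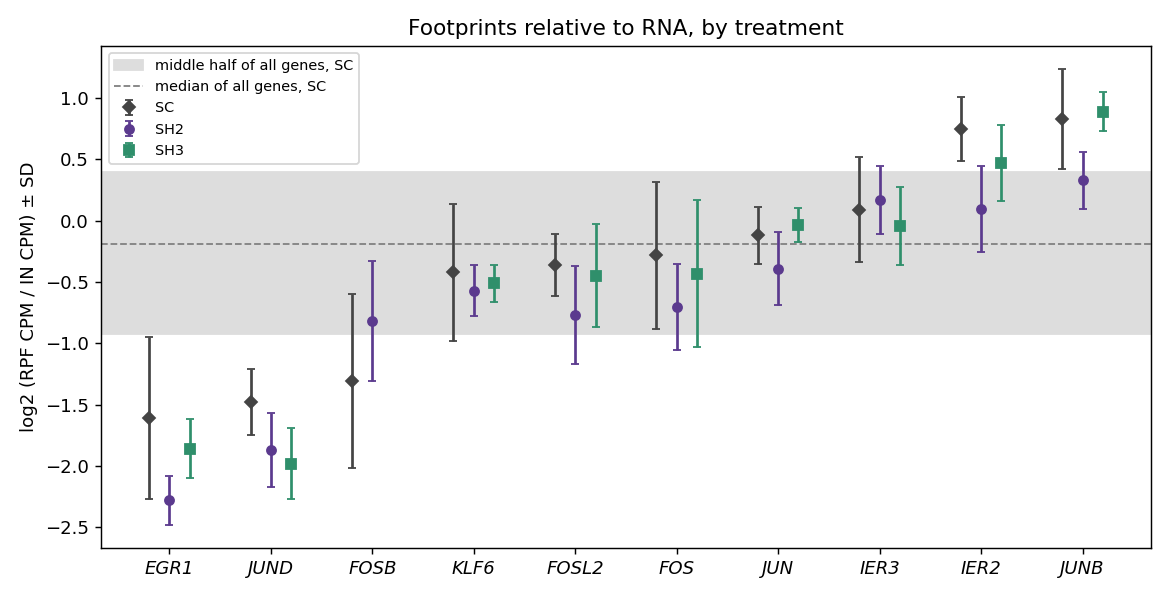
Mean log2 RPF CPM minus mean log2 IN CPM (± SD, 3 libraries of each kind) per member in SC, SH2 and SH3, ordered by the SC value. The band is the middle part of all genes in SC from the lower to the upper quartile, and the dashed line their median. JUNB and IER2 lie above the band in SC, EGR1 and JUND below it in every treatment; FOSB has no SH3 value because 1 library held 0 footprints.

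The hairpins were also compared with each other, which leaves SC out. In RNA 4 of 10 members were called, against 39.3% of all genes (18.9% higher and 20.4% lower in SH2). IER2 was higher in SH2 than in SH3 by 0.59 (SE 0.12, edgeR adjusted p = 0.00194), and the groups did not overlap. KLF6 was higher in SH2 by 0.51 (SE 0.17, edgeR adjusted p = 0.0257) and JUN by 0.37 (SE 0.11, edgeR adjusted p = 0.0204), each without overlap. The libraries were apart for 4 members, 3 above and 1 below, as for 50% of all genes (24.4% above, 25.6% below). JUND was lower in SH2 by 0.34 on the log2 scale (-0.34, SE 0.10, edgeR adjusted p = 0.0184). The calls of KLF6, JUN and JUND each ended without 1 of several libraries of SH2 or SH3 (edgeR adjusted p 0.0548 to 0.0938), and that of IER2 held in every alternative run. FOS RNA, by contrast, differed by 0.0095 in size with an SE of 0.14.

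In footprints 1 of 9 members was called between the hairpins, against 23.8% of all genes. JUNB was lower in SH2 than in SH3 (-0.50, SE 0.15, edgeR adjusted p = 0.025), a call lost without SH2 replicate 2, SH2 replicate 3 or SH3 replicate 3 (edgeR adjusted p 0.0713 to 0.112). KLF6 stood higher in SH2 by 0.45 (SE 0.17, edgeR adjusted p = 0.0646) without overlap of the groups, and was called with the replicate block (0.45, edgeR adjusted p = 0.0389). EGR1 stood lower (-0.37, SE 0.18, edgeR adjusted p = 0.155), also without overlap. With JUNB, 3 of 9 members were apart, as for 42% of all genes (21% above, 21% below). In translational efficiency 0 of 10 members were called by edgeR, against 0.016% of all genes, and 0 by DESeq2, which called 254 genes, with 1 member (JUNB, -0.60, SE 0.21) at an unadjusted p under 0.05.

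Lists of related genes, written by hand, were counted in the same fits. They were chosen with earlier results of these data known, so their counts describe these genes and cannot test an excess over all genes. Among 18 tested of 20 other immediate-early genes, 12 rose and 2 fell in RNA with SH2, and 12 rose and 1 fell with SH3. Of all genes, 31.1% rose and 30.4% fell with SH2, and 27.8% rose and 25.2% fell with SH3, shares against which each list's RNA counts are to be read. The list's median changes were 1.04 and 0.86, against 0.012 and 0.034 for all genes. In footprints 9 of 14 rose with each hairpin, against 21% and 16.9% of all genes. EGR2, a zinc finger relative of EGR1, rose from an SC mean of 0.621 ± 0.172 CPM (SD, n = 3 throughout) to 4.57 ± 0.902 with SH2 and 3.78 ± 0.873 with SH3. Its changes were 2.87 (SE 0.28) and 2.60 (SE 0.28), with edgeR adjusted p of 1.21e-06 and 6.08e-06, larger than those of any of the 10 members. KLF4, a relative of KLF6, rose by 1.75 (SE 0.092) and 1.63 (SE 0.092), and RHOB, a small GTPase of fast turnover, by 1.28 (SE 0.13) and 2.01 (SE 0.13). The genes that fell were DUSP1, a MAP kinase phosphatase, with both hairpins and NR4A1, an orphan nuclear receptor, with SH2, both named after their values were seen. The NR4A1 change with SH2 was near the threshold (-0.44, SE 0.18, edgeR adjusted p = 0.0472), and with SH3 it was not called. Over the 12 alternatives the list's SH2 count of 2 lower dropped to as few as 1.

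Among 8 other AP-1 partners, all tested in RNA, 3 rose and 2 fell with SH2, and 2 rose and 3 fell with SH3 (medians 0.27 and 0.02). ATF3, a stress-induced partner of JUN proteins, rose by 1.90 (SE 0.19) and 1.28 (SE 0.19), with edgeR adjusted p of 1.58e-06 and 8.7e-05, while its footprints were not called. Its translational efficiency with SH2 was called lower (-1.53, edgeR adjusted p = 0.0167), as for 2.46% of all genes. In the lists below, MAP2K2 was also called lower there (-0.81, edgeR adjusted p = 0.00786). ELK3 (0.79, edgeR adjusted p = 0.0388) and LIF (1.08, edgeR adjusted p = 0.0493) were called higher, as for 1.44% of all genes. These values were picked after they were seen, and their hold under the alternatives was not tabulated. JDP2, a repressor that dimerizes with JUN proteins, fell from an SC mean of 6.23 ± 2.21 CPM (SD, n = 3 throughout) to 0.766 ± 0.27 with SH2 and 1.65 ± 0.211 with SH3. Its changes were -3.02 (SE 0.30) and -1.92 (SE 0.28). BATF2 rose by 1.25 (SE 0.25) and 1.49 (SE 0.25). BATF3 fell with both hairpins, ATF2 fell with SH3, and FOSL1 rose with SH2. FOSL1 encodes FRA-1, the FOS subunit known for its high level in this line. It stood at means of 310 ± 36.0 (SC), 473 ± 70.0 (SH2) and 324 ± 40.6 CPM (SH3; SD, n = 3), with a change of 0.61 (SE 0.13, edgeR adjusted p = 0.000928) in SH2, and its footprints were not called. FOSL1, BATF3 and ATF2 are named after their values were seen.

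Of 19 upstream kinases and factors, 12 fell and 3 rose in RNA with SH2, and 6 fell and 2 rose with SH3 (medians -0.38 and -0.025). The SH2 count of 12 dropped to 8 without SC replicate 3 and with library totals, and the SH3 count of 6 lower of 19 stands against 25.2% of all genes. ELK3, an ETS factor that acts with serum response factor and can repress its targets, fell from an SC mean of 269 ± 31.0 CPM (SD, n = 3 throughout) to 60.4 ± 8.61 with SH2 and 29.7 ± 2.69 with SH3. Its changes were -2.15 (SE 0.13) and -3.18 (SE 0.13), with edgeR adjusted p of 2.1e-08 and 3.22e-09. MAPK14 (the kinase p38 alpha) changed by -1.24 (SE 0.093) and -1.34 (SE 0.094), and MAPK3 (ERK1) by -0.75 (SE 0.099) and -0.80 (SE 0.099). Those that rose were MRTFA and MAP2K7 with both hairpins and RPS6KA4 with SH2, named after their values were seen. SRF itself, also named after its values were seen, was not called, at -0.13 (SE 0.092) and -0.025 (SE 0.092).

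Of 6 negative regulators tested, 3 rose and 0 fell in RNA with SH2 (NAB1, NAB2 and MEN1), and 3 rose (NAB2, MEN1, FBXW7) and 1 fell (ITCH) with SH3. The medians were 0.38 and 0.22, and NAB1, FBXW7 and ITCH are named after their values were seen. NAB2, a corepressor of EGR1 and itself an EGR1 target, rose by 1.08 (SE 0.11) and 0.95 (SE 0.11), with edgeR adjusted p of 1.75e-06 and 1e-05. MEN1, which binds JUND, rose by 0.59 (SE 0.10) with SH2 and by 0.29 (SE 0.10, edgeR adjusted p = 0.0331) with SH3, and the latter call was lost in 6 of 12 alternatives. Of 15 genes of AU-rich element mRNA decay, the route that keeps many immediate-early mRNAs short-lived, 6 fell and 4 rose with SH2, and 5 fell and 2 rose with SH3 (medians -0.11 and 0.014). CNOT6, a deadenylase, fell with both hairpins (-1.79, SE 0.11, and -1.29, SE 0.11), as did DCP2, a decapping enzyme (-1.83, SE 0.12, and -0.40, SE 0.12). PAN2, part of another deadenylase, rose (0.58, SE 0.15, and 0.68, SE 0.15). ZFP36, which binds AU-rich elements and is an immediate-early gene itself, stood at means of 22.5 ± 4.03 (SC), 22.4 ± 4.47 (SH2) and 22.5 ± 3.29 CPM (SH3; SD, n = 3), and was picked after its values were seen.

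Of 17 tested AP-1 target genes, 11 rose and 3 fell in RNA with SH2, and 4 rose and 3 fell with SH3 (medians 0.65 and 0.10). The SH2 count of 11 dropped to 6 without SC replicate 3 and to 7 without SH2 replicate 2, and the SH3 count of 4 became 7 without SC replicate 1. AREG, a ligand of the EGF receptor, rose from an SC mean of 21.3 ± 5.56 CPM (SD, n = 3 throughout) to 149 ± 15.5 with SH2 and 64.8 ± 4.32 with SH3. Its changes were 2.81 (SE 0.16) and 1.61 (SE 0.15), with edgeR adjusted p of 1.91e-08 and 2.3e-06. EREG, another ligand of that receptor, rose by 2.12 (SE 0.28) and 2.18 (SE 0.28). MMP9, a matrix metalloproteinase, rose by 1.86 (SE 0.66) and 2.98 (SE 0.60) from only 0.177 ± 0.184 CPM in SC (SD, n = 3), and its SH2 call was lost without SC replicate 2, SC replicate 3, SH2 replicate 1 or SH2 replicate 2. HBEGF, a further ligand of the receptor, also rose with both hairpins, and PLAU and IL11 fell with both. MMP1 fell with SH3 and CCND1 with SH2; these 5 are named after their values were seen.

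**Figure D4:**
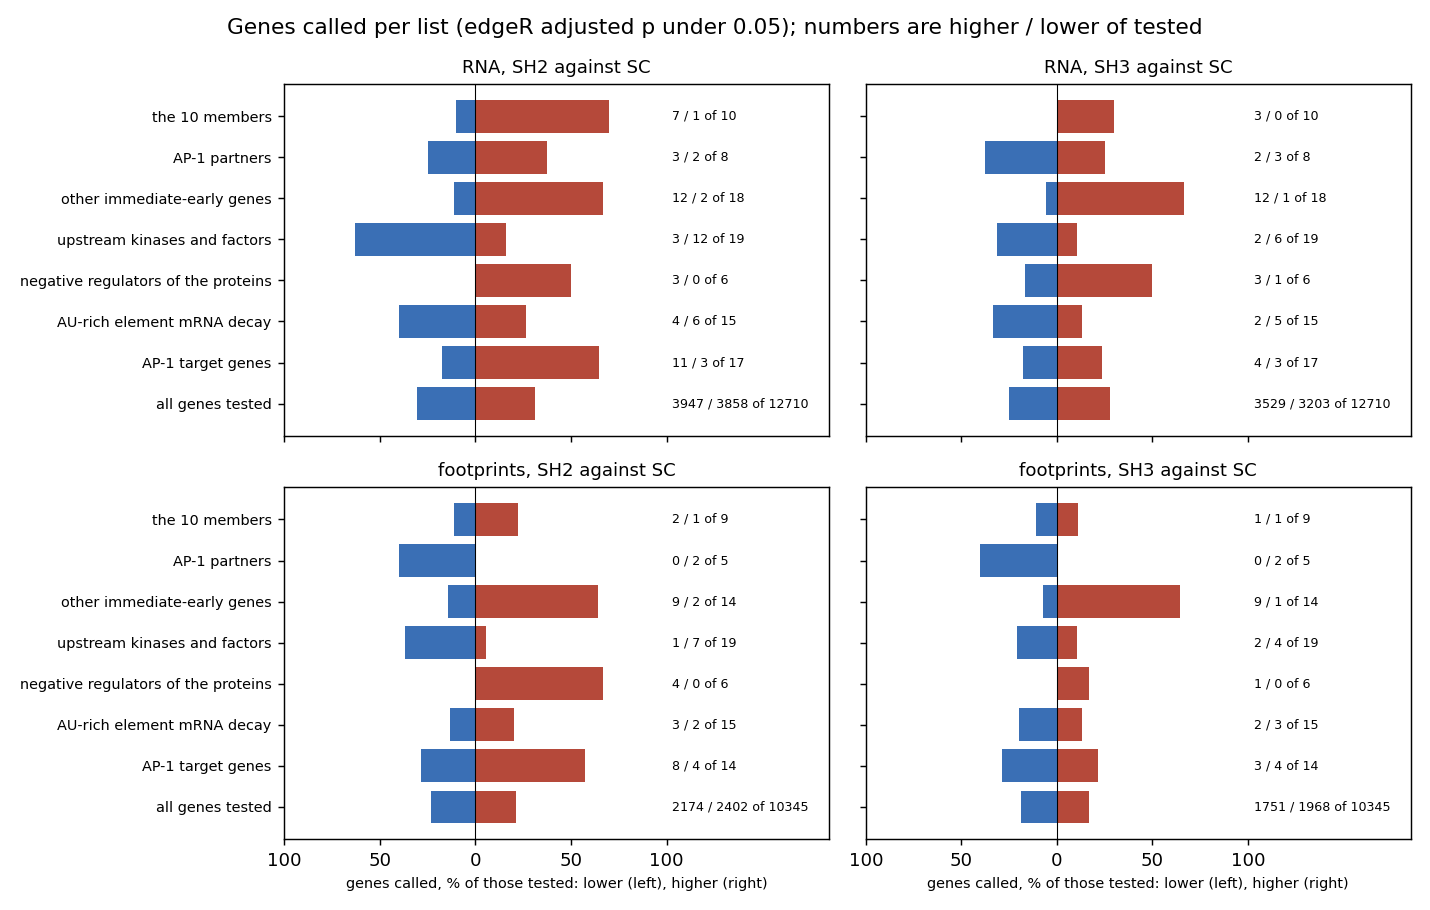
Share of the genes tested that were called higher (right, red) or lower (left, blue) by edgeR in each list, for RNA and footprints with each hairpin; the figures at the right give the counts, and the lowest bar all genes tested. The bar of other immediate-early genes reaches 12 of 18 higher in RNA with both hairpins, and that of the members 7 of 10 with SH2 and 3 of 10 with SH3. Members and lists were chosen with earlier results of these data known.

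The genes whose RNA followed FOS most closely over the 9 IN libraries, by Pearson's correlation of log2 CPM, were CLSTN1, DAG1 and ERLIN2, each at 0.99. CLSTN1 stood at means of 159 ± 30.7 (SC), 290 ± 20.4 (SH2) and 290 ± 28.6 CPM (SH3; SD, n = 3). For JUN they were PPP1R15B, ENTPD7 and MYO1C, each at 0.97. ENTPD7 stood at means of 45.1 ± 13.7 (SC), 68.5 ± 6.47 (SH2) and 42.9 ± 5.31 CPM (SH3; SD, n = 3). These values describe the libraries, which share their group means, and were picked as the highest of all genes.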

How the data were processed

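One table of the whole series was used. Per the file headers it holds, for each gene symbol, raw read counts of the 18 libraries, signal columns normalized by DESeq2, and the authors' log2 fold changes and p-values of each hairpin against SC for IN, RPF and a measure named RD. The deposited counts were used as they stand; within each library the deposited signal was the count divided by 1 factor and was not used. Bowtie 1.2.2 and DESeq2 are named in the submitters' processing notes; the genome build, annotation, strand setting and treatment of reads that match several places are not given in the sources used here. The authors' deposited RD columns of SH2 and SH3 were identical for all 17017 genes and were not used.

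Counts were tested in edgeR 4.0.16 (R 4.3.3) with filterByExpr, TMM factors and the quasi-likelihood test (two-sided), with 1 fit of the 9 IN libraries, 1 of the 9 RPF libraries and 1 of all 18 for translational efficiency as an interaction. Each SE was obtained from the log2 fold change and the F statistic (absolute value over root F). The common coefficient of variation between replicates was 11.6% in IN and 15.1% in RPF. Scripts were tested on simulated data. Alternatives were DESeq2 1.42.0, its size factors in edgeR, library totals, no filter, only the groups compared, a replicate block, and each replicate left out. The footprint to RNA ratio had been planned per replicate number and was computed from group means of log2 CPM instead. In replicates 1 and 2 of SC and SH2, IN and RPF libraries of 1 number deviated in opposite directions (correlations down to -0.49). Those IN libraries deviated together with an RPF library of another number (0.57 and 0.46 in SC, 0.56 and 0.49 in SH2). The number was thus not taken to pair IN with RPF in the ratio. In SH3, IN and RPF libraries of 1 number deviated together (0.21 to 0.42). Same-numbered SC and SH2 libraries deviated together (correlations of 0.33 to 0.37 in RNA and 0.24 to 0.29 in footprints), which is taken to pair them; pairs with SH3 were mixed (-0.11 to 0.46 and -0.11 to 0.30). The pairing comes from the values, since the labels do not say what a number marks. The fits without the block are the main ones, and blocked values stand beside results whose call they change. FOSB was left out of a summary of translational efficiency as an alternative chosen after seeing the data.

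All 10 members were described. Members and lists were chosen with earlier results of these data known. From each list at most 3 genes were named, those called in the same direction by both hairpins in RNA with the largest mean absolute change, plus the 3 genes most correlated with FOS and with JUN; others are marked in the text.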

Additional observations from a re-analysis of the deposited data

Results flagged for a closer look

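Members were picked out here where the hairpins differed from each other by edgeR's test, although both target FBL. In RNA these were IER2 (0.59, SH2 minus SH3 on the log2 scale, edgeR adjusted p = 0.00194), KLF6 (0.51, edgeR adjusted p = 0.0257), JUN (0.37, edgeR adjusted p = 0.0204) and JUND (-0.34, edgeR adjusted p = 0.0184). In footprints it was JUNB (-0.50, edgeR adjusted p = 0.025). FBL itself differed between the hairpins by 0.72 in RNA (SE 0.47, edgeR adjusted p = 0.242), and its part in these differences was not tested.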

How the results depend on the processing

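Of 21 called member values, 10 kept their direction and call under every alternative run: in RNA FOS, JUNB and IER2 with each hairpin, JUND with SH2 and IER2 between the hairpins, and in footprints JUND with SH2 and JUNB with SH3. Over the 252 recomputed values of these 21, 37 lost the call and 0 changed sign. Of 34 RNA values of the list genes named by rule, at most 3 a list and those with the largest changes, 32 kept their call. List genes named after their values were seen are not in this count. Footprint depth limits FOS and FOSB most.

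With 1 replicate left out, members called ranged in RNA from 5 to 9 (SH2, 8 in full), 3 to 5 (SH3, 3 in full) and 1 to 4 (between hairpins, 4 in full), in footprints from 2 to 4, 1 to 3 and 0 to 1, and in translational efficiency from 0 to 2 with SH2. Genes called in footprints between the hairpins (2459) ranged from 1541 to 2104. In translational efficiency the genes called ranged from 110 to 555 (SH2, 489), 10 to 244 (SH3, 86) and 0 to 1 (between hairpins, 2). RNA calls of members with SH3 were 5 with library totals and 5 with no filter. Footprint calls between the hairpins were 2 with no filter and 2 with only the groups compared. With no filter 1 member was called in translational efficiency (SH2). Genes called there were 930, 383 and 254 by DESeq2, 184, 46 and 36 with only the groups compared, and 35 between the hairpins with no filter. Library totals moved the median RNA change of all genes to 0.11 (SH2) and 0.12 (SH3).

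No called member value changed sign; 63 of 1044 recomputed member values did, all of them uncalled. FOSB translational efficiency moved furthest, from 0.45 to -1.72 (SH3) and from 0.14 to between -0.46 and 2.31 (between hairpins) with 1 replicate left out. With library totals JUN and JUND RNA with SH3 became 0.016 and 0.0014, and with no filter EGR1 footprints with SH2 became -0.0016. With 1 replicate left out, JUN RNA with SH3 ranged from -0.18 to 0.019. Footprints with SH2 ranged from -0.19 to 0.50 (FOS), -0.24 to 0.12 (FOSL2), -0.07 to 0.18 (JUN), -0.083 to 0.10 (EGR1) and -0.08 to 0.28 (KLF6), and with SH3 from -0.15 to 0.26 (FOSL2) and -0.029 to 0.079 (JUN). Translational efficiency with SH3 ranged from -0.26 to 0.086 (FOSL2) and -0.17 to 0.34 (JUNB). Counts in the gene lists with few calls moved too: for mRNA decay in RNA, 4 higher became 2 and 6 lower became 3 with SH2, and for negative regulators 3 higher became 1 with SH3, in single leave-outs or with library totals. The cause was not tested.

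The replicate block changed the calls given in the report for EGR1, IER3, JUNB, IER2 and KLF6 and no other member call. With a replicate block, 8, 5 and 4 members were called in RNA and 4, 3 and 2 in footprints (SH2, SH3, between hairpins). In translational efficiency 0 members and 191, 23 and 0 genes were called, in that order. There the block pairs IN with RPF by number, which replicates 1 and 2 of SC and SH2 did not bear out.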
